A study of Mus musculus with 2 samples.

Results

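Genes of cytochrome P450 families 1 to 4 were followed in total RNA of the mouse adrenal gland. Members were chosen by name alone: a gene symbol made of Cyp, a family digit from 1 to 4, 1 subfamily letter and a number with nothing after it, with at least 1 protein-coding transcript. This gave 75 members among the 55536 GENCODE genes of the gene table, of which 3 belong to family 1, 48 to family 2, 7 to family 3 and 17 to family 4, in 21 subfamilies. The glands came from female mice of the F1 hybrid strain B6CASTF1/J at 14 days of age, and no treatment or altered gene is labelled. The labels describe 1 group of 2 libraries, biological replicates 1 and 2. Ribosomal RNA was reduced, ERCC spike-ins (synthetic RNAs of known amount) were added, and a strand-directional library kit was used on 300 ng of RNA. Both libraries carry 1 donor identifier and a library description of pooled females, whereas replicate 2's tissue is labelled as that of 1 numbered female. Separate animals can therefore not be assumed, and the libraries may differ for technical reasons too. With 1 group, no test between groups was possible, and the comparison that the design holds is replicate 2 over replicate 1.

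Cytochrome P450s are heme enzymes that use oxygen, and electrons passed on by the reductase Por, to oxidise small molecules. Families 1 to 4 act on drugs, plant compounds, fatty acids, bile acids and vitamins, and most of their members are known from hepatocytes. The receptors Ahr, Nr1i2, Nr1i3 and Ppara are known to switch on many of them when their ligands are present. The adrenal cortex is known for another set, the steroid P450s such as Cyp11a1 and Cyp21a1. Cyp2f2, which turns naphthalene into a toxic epoxide, is known from club cells of the mouse airway and from liver.

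The libraries held 37586172 and 33844950 expected counts, and a gene with no count could still have up to 3, a share of 7.98e-06% and 8.86e-06%. All 8 adrenal cortex markers and all 6 medulla markers were present in both libraries, with folds of replicate 2 over replicate 1 from 0.460 to 0.634 and from 0.433 to 0.646. The 12 liver markers, such as albumin (Alb), stood apart between the libraries: their summed level was 361 TPM (transcript abundance per length, scaled to a fixed total per library) in replicate 1 and 21381 TPM in replicate 2. Their folds ran from 65.7 to 104, with a median of 78.6. The 6 muscle markers were also higher in replicate 2, by 23.0-fold to 360-fold, and the 6 T cell markers were lower there, at 0.00506 to 0.124 of replicate 1. The 8 fat markers lay between 1.11-fold and 1.62-fold. In bulk RNA, fewer cells of a type and less RNA per cell cannot be told apart. The part that liver RNA has in the member values below was not tested, so each member's fold is set beside the range of the liver markers. Folds are of counts scaled with edgeR's TMM, and their 95% Clopper-Pearson intervals, like the count limits, cover counting error only.

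Replicate 1 held 18 of the 75 members at 1 TPM or more (24.0%, against 56.4% of 22028 protein-coding genes), and replicate 2 held 47 (62.7%, against 55.8%). The 18 members of replicate 1 were all at 1 TPM or more in replicate 2 as well, 29 members reached that level in replicate 2 alone, and 28 in neither library. The summed level of the family members was 529 TPM in replicate 1 and 1522 TPM in replicate 2. Cyp2f2 made up 77.3% of the sum in replicate 1 and 11.9% in replicate 2, where Cyp2e1 took 26.5%. Without Cyp2f2 the members summed to 120 and 1341 TPM. The set in replicate 1 was thus led by 1 gene, and in replicate 2 it was spread over many. The plot of members by level shows both libraries on 1 axis.

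**Figure D1:**
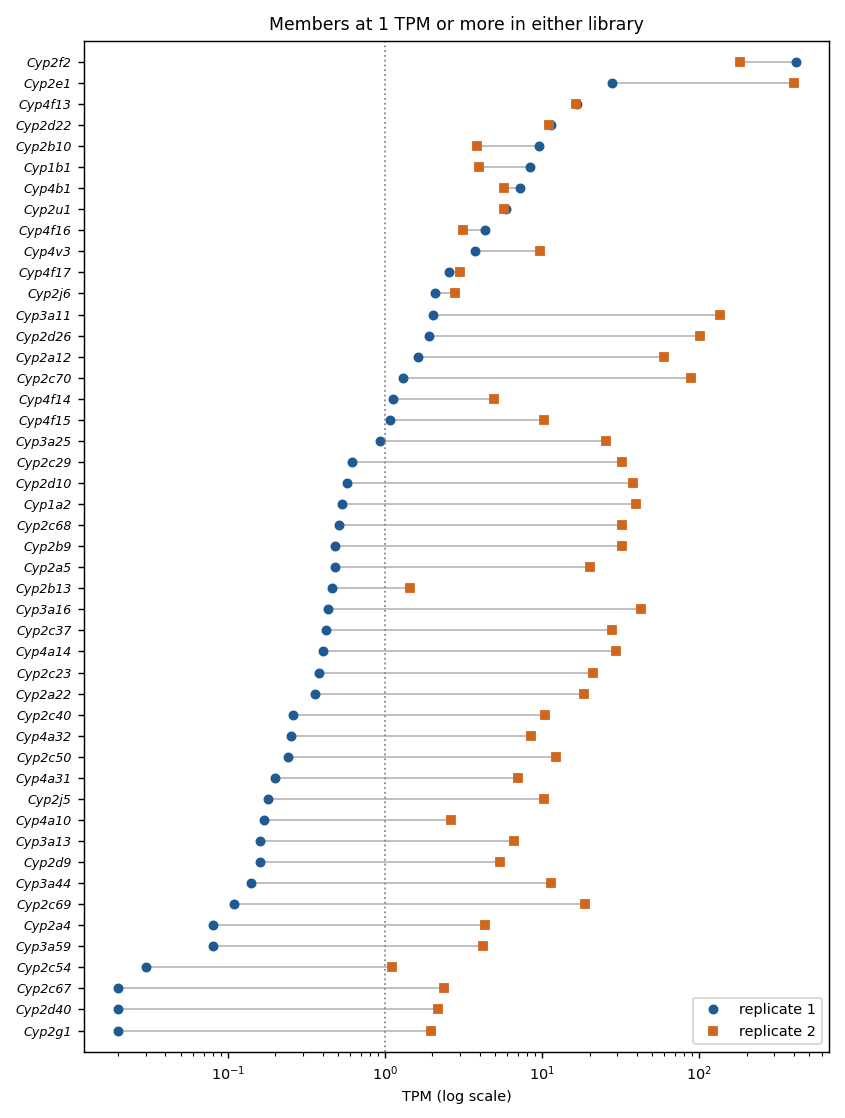
Level of the 47 members at 1 TPM or more in either library, in TPM on a log axis, with a circle for replicate 1, a square for replicate 2 and a line joining them; the dotted line marks 1 TPM. Cyp2f2 is highest in replicate 1 (409 TPM) and Cyp2e1 in replicate 2 (403 TPM), and the lower members form a column of circles under 1 TPM with squares far to their right.

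Of the 75 members, 52 had a mean count of at least 20 and entered the comparison of the libraries. Of these, 38 were more than 2-fold higher in replicate 2 (73.1%, against 8.39% of 16155 genes), 0 were more than 2-fold lower (against 2.58%), and 14 lay within 2-fold (26.9%, against 89.0%). A member low in replicate 1 could pass the minimum through replicate 2 only and then had to be higher there: 17 of the 52 had under 20 counts in replicate 1. Of the 35 members with 20 counts or more in replicate 1, 21 were higher and 14 were within 2-fold. The median log2 difference of the 52 members was 5.70, and that of all 16155 genes was -0.00. The folds of 17 members lay inside the range of the liver markers (32.7%, against 1.06% of all genes), and 5 lay above it with intervals that reach it. Inside it, Cyp2c50, Cyp2d9, Cyp2g1, Cyp2j5 and Cyp3a59 had under 20 counts in replicate 1, as did Cyp2c67, Cyp2c69, Cyp2d40 and Cyp3a44 above it. A further 16 members were higher but under the range, 8 of them with an interval that reaches it and 8 with an interval wholly below it. With total-count scaling the median of all genes moved to -0.34, and with ERCC scaling to -0.28; 6.55% and 6.75% of all genes were then higher and 6.83% and 5.69% lower, and 2 members, Cyp2b10 and Cyp2f2, passed 2-fold lower. Over 7 ways of scaling and sources of values, 7 of the 14 members within 2-fold changed sign (Cyp2d22, Cyp2j9, Cyp2s1, Cyp2u1, Cyp4b1, Cyp4f13 and Cyp4f16), whereas Cyp1b1, Cyp2b10, Cyp2f2 and Cyp4f18 were below 0 in all 7 and Cyp2j6, Cyp2r1 and Cyp4f17 above 0 in all 7. The plot of member folds shows these classes in order.

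**Figure D2:**
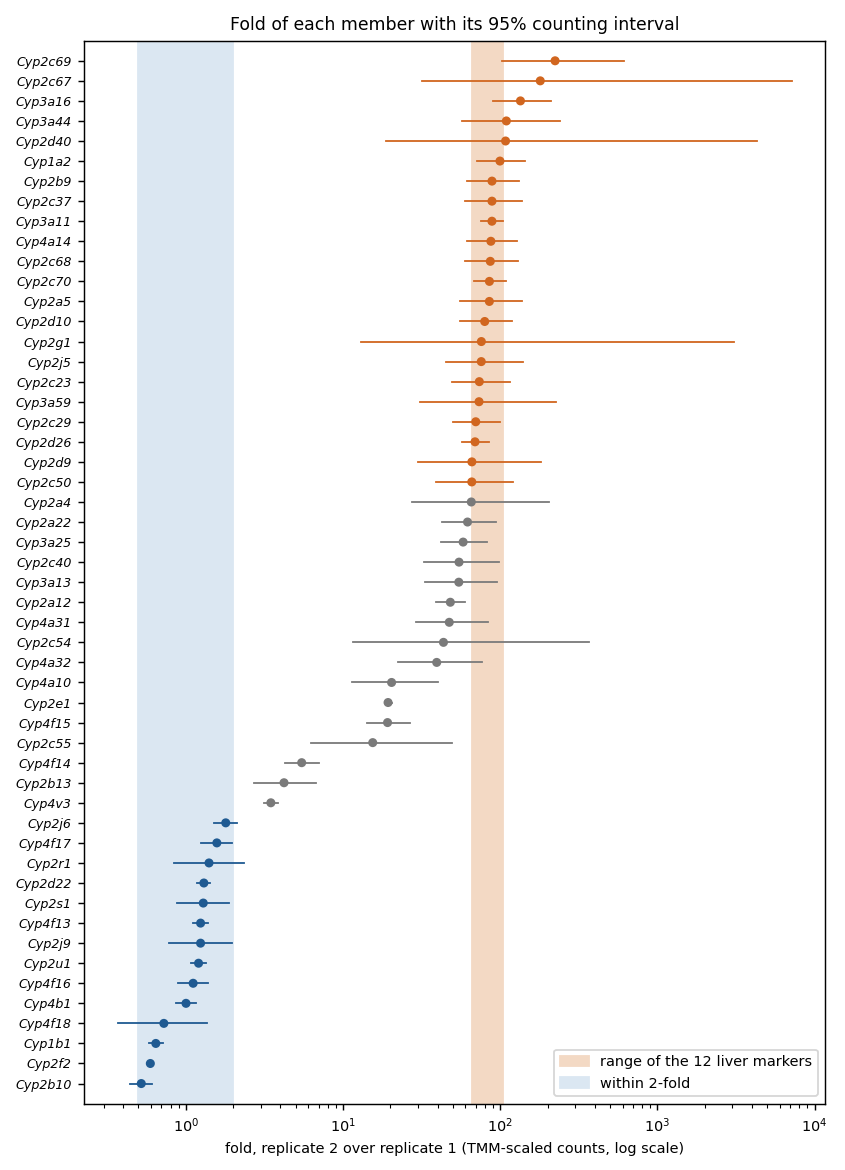
Fold of replicate 2 over replicate 1 for the 52 members with a mean count of at least 20, on a log axis, with 95% counting intervals as bars. The orange band is the range of the 12 liver markers (65.7 to 104) and the blue band is within 2-fold; orange points lie in or above the liver range, blue points within 2-fold, and grey points between them, with Cyp2e1 at 19.3 and Cyp2a12 at 48.2.

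Cyp2f2 was the leading member outside the liver pattern. Its gene lies on chromosome 7 of mm10 from 27119909 to 27133660, on the plus strand. It had 24854 expected counts in replicate 1 and 10523 in replicate 2, or 409 and 181 TPM (295 ± 161, SD, n = 2). Both libraries held it at a high level, and it ranked 59th and 240th of 22028 protein-coding genes. Its fold of 0.595 (0.581 to 0.609) lay among those of the adrenal cortex and medulla markers. At the median fold of the liver markers, the 10523 counts of replicate 2 would go with 188 counts in replicate 1, against the 24854 measured. Set against steroid genes, the level of Cyp2f2 kept nearly the same proportion in both libraries: 0.341 and 0.351 of Cyp11a1, which starts steroid synthesis, and 0.304 and 0.284 of Cyp21a1, the 21-hydroxylase. As log2 ratios these were -1.53 ± 0.03 and -1.77 ± 0.07 (SD, n = 2). Against Star, which brings cholesterol into mitochondria, the proportions were 0.200 and 0.217.

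The 6 lung airway markers were far under Cyp2f2. They summed to 6.51 TPM in replicate 1 and 1.79 TPM in replicate 2. The club cell secretoglobin Scgb1a1 had 41 and 0 counts and Scgb3a2 had 6 and 0. The surfactant gene Sftpc had 61 and 39 counts, and the alveolar claudin Cldn18 had 0 in both libraries. None of the 6 kidney tubule markers reached 1 TPM in either library, and Umod and Slc12a1 had 0 counts in both. Which cells hold the Cyp2f2 transcripts was not tested. Nearly all Cyp2f2 signal went to 1 transcript, the protein-coding Cyp2f2-201 of 1866 bases and 10 exons, with 98.98% and 99.32% of the gene's TPM. In the second transcript table its shares were 97.6% and 98.4%. No 31-base stretch of the gene's protein-coding transcripts occurs in a transcript of another gene, so its count did not need dividing with a paralog.

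The start sequences of 6 members were chosen because their folds differ: Cyp2f2, Cyp2b10 and Cyp1b1 within 2-fold, Cyp3a11 and Cyp2c70 in the liver range, and Cyp2e1 between them. Each sequence is the 250 bases before the annotated start in RefSeq on GRCm38.p6 (the build of mm10), written 5′ to 3′ on the strand of the gene. Capitals mark matches on either strand, at any distance from the start. Marked were CAAAGTCCA (a site for the liver factor Hnf4a) and AGGTCA (the core that many nuclear receptors bind). GCGTG (the core of the Ahr element) and TATAAA (the letters of the TATA box) were marked too. The reverse strand of GCGTG reads CACGC, and that of TATAAA reads TTTATA.
Cyp2f2 (chr7:27119705-27119954, plus strand): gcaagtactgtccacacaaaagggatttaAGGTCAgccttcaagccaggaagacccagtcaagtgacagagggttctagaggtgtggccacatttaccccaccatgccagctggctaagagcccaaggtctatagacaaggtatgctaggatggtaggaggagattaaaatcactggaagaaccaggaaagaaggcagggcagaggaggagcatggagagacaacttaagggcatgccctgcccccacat
Cyp2b10 (chr7:25897408-25897657, plus strand): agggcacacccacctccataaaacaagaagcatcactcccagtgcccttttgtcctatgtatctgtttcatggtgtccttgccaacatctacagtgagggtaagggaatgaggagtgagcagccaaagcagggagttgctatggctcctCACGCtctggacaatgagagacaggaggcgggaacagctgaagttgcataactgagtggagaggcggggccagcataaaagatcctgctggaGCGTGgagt
Cyp1b1 (chr17:79715062-79715311, minus strand): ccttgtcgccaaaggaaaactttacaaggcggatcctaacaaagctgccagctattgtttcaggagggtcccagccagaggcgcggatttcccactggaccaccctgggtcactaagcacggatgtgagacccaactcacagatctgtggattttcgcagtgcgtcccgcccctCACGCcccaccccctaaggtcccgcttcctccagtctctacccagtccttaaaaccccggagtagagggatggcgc
Cyp2e1 (chr7:140763569-140763818, plus strand): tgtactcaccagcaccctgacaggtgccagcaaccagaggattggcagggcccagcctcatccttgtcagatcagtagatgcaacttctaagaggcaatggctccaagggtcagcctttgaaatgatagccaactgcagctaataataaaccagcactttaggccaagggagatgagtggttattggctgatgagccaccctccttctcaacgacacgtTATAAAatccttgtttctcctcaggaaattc
Cyp3a11 (chr5:145879855-145880104, minus strand): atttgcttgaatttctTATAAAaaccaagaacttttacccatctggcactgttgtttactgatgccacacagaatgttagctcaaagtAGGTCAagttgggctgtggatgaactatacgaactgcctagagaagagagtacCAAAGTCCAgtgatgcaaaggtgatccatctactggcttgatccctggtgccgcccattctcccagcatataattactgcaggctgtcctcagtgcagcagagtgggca
Cyp2c70 (chr19:40187287-40187536, minus strand): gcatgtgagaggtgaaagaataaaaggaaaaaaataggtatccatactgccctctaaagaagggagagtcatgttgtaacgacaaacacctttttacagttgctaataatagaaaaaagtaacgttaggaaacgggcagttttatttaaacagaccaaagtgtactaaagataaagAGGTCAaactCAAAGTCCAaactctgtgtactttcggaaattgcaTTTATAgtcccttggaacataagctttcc
With the RefSeq start counted as position 0, Cyp2f2 had AGGTCA with its leftmost base at position -221 and no TATAAA. Cyp2e1 had TATAAA at position -31. Cyp2c70 had AGGTCA at position -74, CAAAGTCCA at position -64 and TTTATA at position -29. Cyp3a11 had CAAAGTCCA at position -109, AGGTCA at position -162 and TATAAA at position -234. Cyp2b10 had CACGC at position -101 and GCGTG at position -9, and Cyp1b1 had CACGC at position -76. The GENCODE start of the leading transcript lies at position -110 for Cyp3a11, -80 for Cyp2e1, -46 for Cyp2f2, -38 for Cyp2b10, 0 for Cyp2c70 and 20 for Cyp1b1.

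RefSeq gave a start window for 62 of the 75 members (300 bases, 250 before the start and 50 after), and each window was searched on both strands. TATAAA was present in 27 of the 62 (43.5%), against 13.6% of 32817 windows of the same length over all genes. It was present in 14 of the 19 members in or above the liver range and in 0 of the 11 members within 2-fold. Its other matches lay in members higher but under the range, such as Cyp2a12 and Cyp2e1, and in members under the minimum count. The latter include Cyp2c65 and Cyp2c66, with 0 counts in both libraries. CAAAGTCCA was present in 8 members (12.9%, against 0.475%), 6 of them in or above the liver range and 0 within 2-fold. The others were Cyp2c40, higher but under the range, and Cyp2c65. AGGTCA was present in 18 members (29.0%, against 16.3%), 9 in or above the liver range and 1 within 2-fold, which is Cyp2f2. The rest were higher but under the range, such as Cyp2a4, or under the minimum count, such as Cyp2b23. GCGTG was present in 12 members (19.4%, against 32.4%), 1 in or above the liver range and 5 of the 11 within 2-fold. Of the others, Cyp4v3 was higher but under the range, and Cyp1a1, Cyp2j12, Cyp2j13, Cyp2w1 and Cyp4f39 were under the minimum count. The forkhead core TGTTTAC was present in 6 members (9.68%, against 3.65%) and TTGNGNAA, a C/EBP pattern, in 9 (14.5%, against 13.3%). CAAGGTCA, a site for the adrenal factor Nr5a1 that contains AGGTCA, was present in 0 of the 62, against 1.56% of all windows. These are matches of letters and not sites shown to be bound, and neighbouring paralogs share start sequence by descent, so members are not independent of each other.

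Cyp2f2 lies near the end of a cluster of 13 members on chromosome 7, from 25802475 to 27158668. Of the 10 members of the cluster with enough counts, 3 were in the liver range (1.06% of all genes were). A further 4 were higher but under it (8.39% of all genes were more than 2-fold higher), and 3 were within 2-fold (89.0% of all genes were). Cyp2g1 and Cyp2a4, with 1 and 5 counts in replicate 1, passed the minimum through replicate 2 only and had to be higher there. The upstream neighbour Cyp2a12 starts 90.8 kb before Cyp2f2 and had 1.61 and 59.9 TPM. The downstream neighbour Cyp2t4 starts 33.8 kb after the start of Cyp2f2 and had 0 counts in both libraries. The next genes, Egln2 and Rab4b, are not P450s and lay within 2-fold, at 25.5 and 22.6 TPM and at 12.6 and 8.74 TPM. Gm15883, an antisense gene inside Cyp2f2, had 1 and 5 counts.

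**Figure D3:**
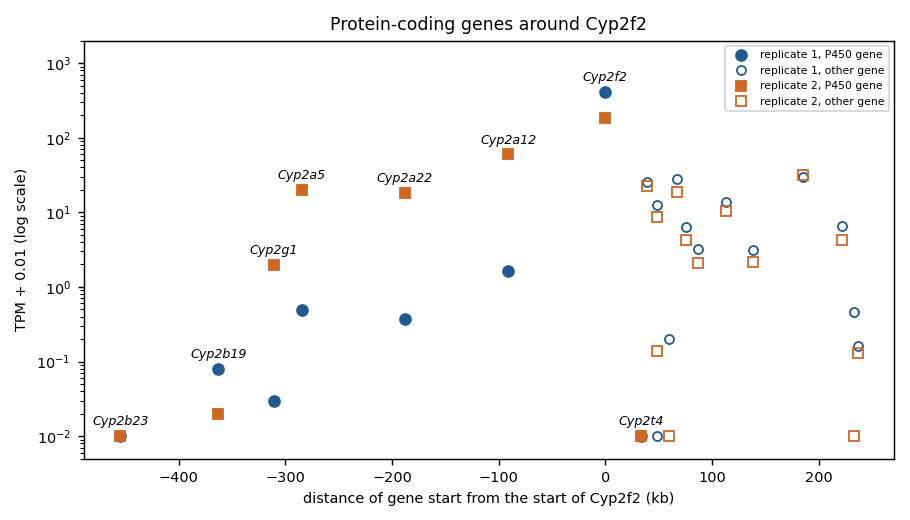
Level of the protein-coding genes around the start of Cyp2f2, in TPM + 0.01 on a log axis, against the distance of each gene's start from that of Cyp2f2 in kb; filled marks are P450 genes, open marks other genes, circles replicate 1 and squares replicate 2. Cyp2f2 is the highest gene of the region in both libraries (409 and 181 TPM), while Cyp2a12, Cyp2a22, Cyp2a5 and Cyp2g1 have squares far above circles.

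Within family 1, Cyp1b1 and Cyp1a2 went opposite ways. Cyp1b1, which oxidises estradiol and polycyclic hydrocarbons in many tissues outside the liver, had 1275 and 585 counts, or 8.33 and 3.96 TPM, with a fold of 0.645 (0.584 to 0.711). Its level was 0.00693 and 0.00765 of that of Cyp11a1. Cyp1a2, the caffeine-oxidising enzyme of hepatocytes, had 34 and 2411 counts, or 0.53 and 39.7 TPM, with a fold of 99.6 (71.1 to 144) inside the liver range. Cyp1a1, which Ahr ligands induce in many tissues, stayed under the minimum with 1 and 34 counts.

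The Cyp2b genes spread over the whole range of patterns. Cyp2b10, a phenobarbital-induced enzyme and standard target of Nr1i3, had 596 and 221 counts, or 9.48 and 3.87 TPM. Its fold of 0.521 (0.444 to 0.609) was the smallest among the 52 members with enough counts. Cyp2b9, known from liver of female mice, had 30 and 1893 counts, or 0.48 and 32.3 TPM, and a fold of 88.7 (61.9 to 132) inside the liver range. The ratio of Cyp2b10 to Cyp2b9 was thus 19.8 in replicate 1 and 0.120 in replicate 2. Cyp2b13 was between them, with 28 and 84 counts and a fold of 4.21 (2.72 to 6.72). Of the 31-base stretches of Cyp2b10, 20.98% also occur in another gene, so part of its count could be divided with paralogs. The deposited posterior SD of its count was 0 in both libraries. The second transcript table gave it 580 and 217 estimated counts. Cyp2b19, known from skin, had 5 and 1 counts, and Cyp2b23 had 0 in both.

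All 4 Cyp2a genes were far higher in replicate 2, summing to 2.53 and 103 TPM (8.39% of all genes were more than 2-fold higher). Cyp2a4, with 5 counts in replicate 1, passed the minimum through replicate 2 only. Cyp2a12, a steroid hydroxylase of liver, was the highest, with 94 and 3223 counts and a fold of 48.2 (39.2 to 59.8), an interval just under the liver range. Cyp2a5, which hydroxylates coumarin and nicotine, had 0.48 and 20.2 TPM and a fold of 85.3 inside the range. Cyp2a22 had 0.36 and 18.4 TPM with a fold of 62.0, and Cyp2a4, a testosterone hydroxylase, 0.08 and 4.31 TPM with a fold of 65.5. Cyp2a4 and Cyp2a5 share 58.1% and 56.3% of their 31-base stretches with other genes, and Cyp2a12 shares 41.6%, mostly with Cyp2a22. Cyp2g1, known from the olfactory mucosa, had 1 and 54 counts and a fold of 75.9 (13.1 to 3051).

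The Cyp2c genes, epoxygenases of arachidonic acid and drug oxidisers of liver, numbered 15 and summed to 3.97 and 247 TPM. All 11 of them with enough counts were higher in replicate 2, from 15.5-fold to 223-fold (8.39% of all genes were more than 2-fold higher). Of these, 8 were in or above the liver range (1.06% of all genes were inside it). Cyp2c40, Cyp2c50, Cyp2c54, Cyp2c55, Cyp2c67 and Cyp2c69 had under 20 counts in replicate 1. These genes passed the minimum through replicate 2 only and had to be higher there. Cyp2c70, which makes the muricholic bile acids of mice, led the subfamily with 73 and 4436 counts, or 1.30 and 88.2 TPM, and a fold of 85.4 (67.8 to 109). It was the sole Cyp2c gene at 1 TPM or more in replicate 1. Cyp2c69 had the largest fold among the 52 members with enough counts, 223 (102 to 610), from 6 and 954 counts. Cyp2c67 followed with 180 (31.7 to 7158), from 1 and 128 counts. These 2 genes share 65.9% and 67.6% of their 31-base stretches with other genes. Cyp2c55, known from the intestine and colon, stood under the liver range with 5 and 55 counts and a fold of 15.5 (6.24 to 49.5). Cyp2c65 and Cyp2c66 had 0 counts in both libraries.

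In the Cyp2d cluster on chromosome 15, 5 of the 8 members had enough counts. Of these, 4 were in or above the liver range (1.06% of all genes were inside it). The other 1, Cyp2d22, lay within 2-fold (89.0% of all genes did). Cyp2d9 and Cyp2d40, with 6 and 1 counts in replicate 1, passed the minimum through replicate 2 only and had to be higher there. Cyp2d22, the mouse gene often compared with human CYP2D6, had 868 and 805 counts, or 11.3 and 11.1 TPM, with a fold of 1.30 (1.18 to 1.44). Cyp2d26 had 105 and 5169 counts, or 1.90 and 101 TPM, with a fold of 69.2 (57.0 to 84.7) inside the liver range. The ratio of Cyp2d22 to Cyp2d26 was 5.95 in replicate 1 and 0.110 in replicate 2. Cyp2d10, Cyp2d9 and Cyp2d40 had folds of 79.7, 66.0 and 108, the last from 1 count in replicate 1. The remaining 3, Cyp2d11, Cyp2d12 and Cyp2d34, had at most 4 counts in either library of the gene table, though the second transcript table gave Cyp2d34 an estimate of 36.8 in replicate 2. Cyp2d22 shares 9.97% of its 31-base stretches with other genes, so few of its reads could be divided.

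Cyp2e1, which oxidises ethanol and acetone, was strong in both libraries but followed neither pattern. It had 1618 and 22281 counts, or 27.8 and 403 TPM, and ranked second among members in replicate 1 and at the top in replicate 2. Its fold of 19.3 (18.4 to 20.4) lay under the whole liver range and over that of every fat marker. At the median fold of the liver markers, its 22281 counts would go with 398 counts in replicate 1, against the 1618 measured. Its proportion to albumin was 0.147 in replicate 1 and 0.0381 in replicate 2, whereas that of Cyp3a11 was 0.0108 and 0.0127. Which cells hold the Cyp2e1 transcripts of replicate 1 was not tested. The fat marker Adipoq stood at 63.2 and 76.2 TPM. The transcript Cyp2e1-201 took 84.4% and 80.7% of the gene's TPM, and 96.5% and 95.2% in the second transcript table.

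The remaining genes of family 2 were those of the Cyp2j, Cyp2r, Cyp2s, Cyp2t, Cyp2u and Cyp2w subfamilies. Of these, 5 lay within 2-fold (89.0% of all genes did), 1 was in the liver range (1.06%) and 7 were under the minimum count. The gene in the range, Cyp2j5, had 14 counts in replicate 1 and passed the minimum through replicate 2 only. Cyp2u1, a fatty acid hydroxylase, had 796 and 683 counts, or 5.90 and 5.68 TPM, and a fold of 1.21 (1.09 to 1.34). Cyp2j6, of a subfamily that epoxidises arachidonic acid, had 2.08 and 2.79 TPM and a fold of 1.80 (1.52 to 2.13). Cyp2j9 had 0.61 and 0.59 TPM, whereas Cyp2j5, known from kidney and liver, had 0.18 and 10.2 TPM with a fold of 75.8 inside the liver range. Cyp2s1, known from epithelia, had 62 and 57 counts. Cyp2r1, the vitamin D 25-hydroxylase, had 33 counts in each library.

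All 6 Cyp3a genes with enough counts were higher in replicate 2, by 54.5-fold to 135-fold (8.39% of all genes were more than 2-fold higher). Cyp3a13, Cyp3a44 and Cyp3a59 had under 20 counts in replicate 1, so they passed the minimum through replicate 2 only and had to be higher there. Cyp3a11, the main drug-oxidising P450 of mouse liver and a target of Nr1i2, had 158 and 9962 counts, or 2.03 and 134 TPM, with a fold of 88.6 (75.7 to 104). Cyp3a16, known from fetal and young liver, had 24 and 2298 counts, or 0.43 and 42.7 TPM, with a fold of 135 (90.2 to 210). Cyp3a44 had 9 and 701 counts with a fold of 109 (57.3 to 240). Cyp3a25, Cyp3a59 and Cyp3a13 had folds of 58.1, 73.3 and 54.5. Cyp3a57 had 3 and 5 counts. The subfamily summed to 3.83 and 225 TPM, and Cyp3a11 shares 33.8% of its 31-base stretches with other genes.

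Family 4 holds enzymes that oxidise the ends of fatty acids and leukotrienes. Of its 12 members with enough counts, 5 lay within 2-fold (89.0% of all genes did). A further 6 were higher but under the liver range (8.39% of all genes were more than 2-fold higher). The remaining 1 was inside it (1.06% of all genes were). Cyp4a10, Cyp4a31 and Cyp4a32 had under 20 counts in replicate 1, so they passed the minimum through replicate 2 only and had to be higher there. In or above the range were 16 of the 32 family 2 members with enough counts. The same held for 4 of 6 in family 3 and 1 of 2 in family 1. Over all genes 1.06% were inside the range, and the share above it was not computed. Of the members in or above it, Cyp2c50, Cyp2c67, Cyp2c69, Cyp2d9, Cyp2d40, Cyp2g1, Cyp2j5, Cyp3a44 and Cyp3a59 had under 20 counts in replicate 1. These passed the minimum through replicate 2 only and had to be higher there. Cyp4f13 was the highest member of family 4 in replicate 1, with 681 and 602 counts, or 16.7 and 16.5 TPM, and a fold of 1.24 (1.11 to 1.39). Only 45.7% and 47.6% of its TPM went to the protein-coding transcript Cyp4f13-201, with the rest over shorter and intron-holding transcripts. Cyp4f16 had 4.34 and 3.14 TPM with a fold of 1.11, and Cyp4f17 had 2.54 and 2.99 TPM with a fold of 1.58. Cyp4f16 shares 38.4% of its 31-base stretches with other genes, mostly with Cyp4f37, which had 0 counts. Cyp4f18, which inactivates leukotriene B4 in neutrophils, had 31 and 16 counts and a fold of 0.725 (0.370 to 1.37). Cyp4f14 and Cyp4f15, in the same cluster on chromosome 17, were higher in replicate 2: Cyp4f14 had 1.12 and 4.93 TPM with a fold of 5.46 (4.25 to 7.08), and Cyp4f15 had 1.07 and 10.3 TPM with a fold of 19.2 (14.2 to 26.6).

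Cyp4b1, a fatty acid hydroxylase known from lung, had 416 and 297 counts, or 7.17 and 5.74 TPM, with a fold of 1.00 (0.861 to 1.17). It shares its cluster on chromosome 4 with the Cyp4a genes, the fatty acid hydroxylases that Ppara switches on. Of those, Cyp4a14 had 0.40 and 29.4 TPM with a fold of 87.2 inside the liver range. Cyp4a31 and Cyp4a32 had folds of 47.4 and 39.5 with intervals that reach it, and Cyp4a10 had 12 and 174 counts and a fold of 20.4 (11.4 to 40.2), below it. Cyp4a29 had 0 counts in both libraries. Cyp4v3, a fatty acid hydroxylase whose human counterpart is mutated in a crystalline eye disease, had 479 and 1185 counts, or 3.73 and 9.69 TPM. Its fold of 3.48 (3.12 to 3.87) was the smallest among the 38 higher members. The plot of summed subfamily levels shows where the libraries meet and part.

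**Figure D4:**
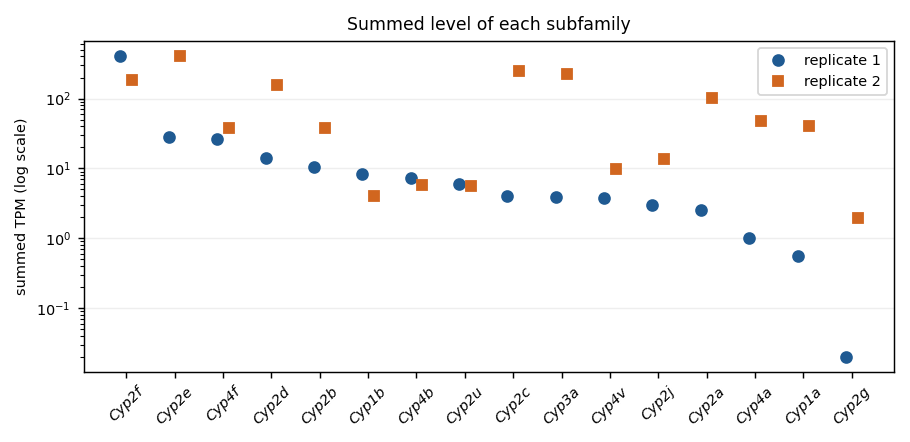
Summed level of the 16 subfamilies at 1 TPM or more in either library, in TPM on a log axis, with a circle for replicate 1 and a square for replicate 2, ordered by replicate 1. Cyp2f, Cyp1b, Cyp4b and Cyp2u have the circle at or above the square, while Cyp2c (3.97 and 247 TPM), Cyp3a (3.83 and 225 TPM), Cyp2a, Cyp4a and Cyp1a have squares far above it.

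At the low end, 23 members stayed under a mean count of 20. Of these, 11 had 0 counts in both libraries and 12 had some. Cyp2c39, with 0 and 24 counts, was 11.2-fold higher in replicate 2 when replicate 1 is set at its limit of 3 counts. That value takes the 24 counts of replicate 2 as exact, and the counting interval of the Cyp2c39 fold started lower, at 8.46. Cyp4x1, known from brain, had 3 and 4 counts, and Cyp4f39, of the skin barrier, 1 and 3.

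The other P450 genes were set beside the members from lists of the same enzyme class. Of the 6 steroid synthesis P450s, 5 had enough counts. All 5 lay within 2-fold (89.0% of all genes did), from 0.536 to 0.714, with a summed level of 3474 and 1529 TPM. Against the 409 and 181 TPM of Cyp2f2, Cyp11a1 stood at 1202 and 517 TPM, Cyp11b1, which makes corticosterone, at 882 and 353 TPM, and Cyp17a1, which rodent adrenals are known to lack, at 2.33 and 1.08 TPM. Of 15 other P450 genes, 11 had enough counts, 4 of them higher (8.39% of all genes were), 1 lower (2.58%) and 6 within 2-fold (89.0%). The 2 bile acid enzymes Cyp7a1 and Cyp8b1 had folds of 87.5 and 72.2 inside the liver range, whereas Cyp27a1 had 3.01. Cyp51, of cholesterol synthesis, was the lower gene, with 16.2 and 6.11 TPM and a fold of 0.487.

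Genes whose products serve P450s were read beside the members. Of 9 genes for electron transfer and heme supply, with folds from 0.565 to 2.43, 8 lay within 2-fold (89.0% of all genes did) and 1, Cyb5a, was higher, with 91.6 and 165 TPM and a fold of 2.43. Por, the reductase that all members need, had 57.7 and 68.3 TPM with a fold of 1.87 (1.80 to 1.95). Alas1, the first enzyme of heme synthesis, had 321 and 247 TPM with a fold of 0.960. Of 13 regulator genes, 9 were higher in replicate 2 (8.39% of all genes were), 0 were lower (2.58%) and 4 lay within 2-fold (89.0%). Nr1i2, Nr1i3 and Hnf4a, which are known from hepatocytes, had 8 and 446, 23 and 972, and 55 and 3152 counts, with folds of 78.3, 59.4 and 80.5. Ahr had 1.92 and 5.26 TPM with a fold of 3.80, and Ppara had 12.6 and 31.7 TPM with a fold of 2.99. Arnt, the partner of Ahr, lay at 19.1 and 15.7 TPM with a fold of 1.07.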

How the data were processed

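Total RNA-seq of 1 group of 2 adrenal libraries was analysed. Per the labels, the assembly is mm10, and the deposited text gives GENCODE M21. The sources used here do not name the tools behind the tables or say whether strand was used in counting. Deposited expected counts and deposited TPM came from a gene table and a transcript table, the latter also with each transcript's percent of its gene's TPM. Another deposited transcript table, called the second, gave estimated counts and TPM. TPM was used to compare genes within a library.

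Expected counts were rounded, and 37586172 and 33844950 counts in all were scaled with edgeR 4.0.16 TMM over GENCODE genes (R 4.3.3). Log2 differences carry a prior count of 0.5. The minimum mean count was 20, and called means past 2-fold. Folds and intervals use no prior. The liver range runs from the lowest to the highest fold of 12 markers. Shared sequence was the share of 31-base stretches of a member's protein-coding transcripts found in transcripts of other genes. Scripts were tested on simulated counts. Named were members at 1 TPM or more in replicate 1, the 10 highest in replicate 2, the 5 largest and 5 smallest folds, list examples, and others to complete a subfamily. Members and lists were chosen with earlier results of these data known. 1 regulator gene is not reported here. Alternatives were DESeq2 1.42.0 size factors, total-count and spike-in scaling, other minimums, thresholds and pseudocounts, rescaled TPM, the second table and leaving out each library.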

Additional observations from a re-analysis of the deposited data

Results flagged for a closer look

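The second transcript table was not used for the member values of the report. In it 7 members passed the limit of 3 counts in a library where the gene table had 3 counts or fewer, with an estimate more than 3 above the gene table. Cyp2j13, of the arachidonic acid epoxygenase subfamily, had 0 counts in both libraries of the gene table but estimates of 9 and 14 in the second transcript table. Cyp4x1 had 3 counts in replicate 1 of the gene table and 20.02 estimated counts. In replicate 2, with 4 counts each in the gene table, Cyp4x1 had 36.2 estimated counts and Cyp2d34 had 36.8. Cyp2d11 had 3 counts in replicate 2 and 9.24 estimated counts, and Cyp2d12 had 0 counts and 6.35. Cyp2c38 had 2 counts in replicate 2 and 5.002 estimated counts, and Cyp2b19 had 1 count and 4.24. Cyp2b23 had 0 counts in replicate 1 and 3.22 estimated counts. All are low signals, and what makes the tables differ was not tested.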

How the results depend on the processing

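No paired analysis was possible because the labels describe 1 group, so no second group shares its replicate numbers. The counts of members higher and within 2-fold stayed within 1.5 times of 38 and 14 under every alternative run. The count of members more than 2-fold lower, 0 with TMM, became 2 with total-count scaling, 2 with ERCC scaling, 3 with no minimum, 3 with TPM and a pseudocount of 0.1, 2 with TPM and a pseudocount of 1, and 3 at a fold threshold of 1.5. Cyp2b10 and Cyp2f2 were among them in each case but that of no minimum, which added Cyp2b19, Cyp2j12 and Cyp2j8 with at most 5 counts. With TPM and a pseudocount of 0.1, and at the threshold of 1.5, Cyp1b1 joined them. Members inside the liver range, 17, became 9 with TPM and a pseudocount of 0.1, 1 with TPM and a pseudocount of 1, and 29 when the range was within 2-fold of the median marker fold. The median log2 difference of 5.70 became 4.48 and 2.45 with those pseudocounts, which understate low genes by construction. Leaving out a library moved the members at 1 TPM or more from 44 on the mean to between 18 (without replicate 2) and 47, and the mean summed level from 1026 TPM to between 529 and 1522 TPM. Of 162 log2 differences of the 27 named members under other settings, 85 moved by less than the counting error, 77 by more, and 0 changed sign among called values. Few counts in replicate 1 give wide intervals, such as 31.7 to 7158 for Cyp2c67 from 1 count. No difference between the libraries can be computed without 1 of them.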

Other observations

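Genes of the same families whose symbols fall outside the naming rule gave the following values. Cyp3a41a, a close relative of Cyp3a44, had 8 and 240 counts, with a fold of 42.1, and Cyp3a41b had 0 and 2 counts. Cyp4a12b had 0 and 2 counts, Cyp4a12a and Cyp4a30b had 0 in both libraries, and Cyp2ab1 had 3 in each. Among pseudogenes, Cyp2d37-ps had 2 and 112 counts and Cyp3a63-ps had 4 and 156.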
